A study of Mus musculus with 4 samples.

Results

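The secreted signals Nodal, Lefty, GDF3, BMP4 and Cerberus and the co-receptors Cripto (gene Tdgf1) and endoglin (gene Eng) were followed across mouse embryonic stem (ES) cells and neurospheres. Of the 8 genes listed (Nodal, Gdf3, Bmp4, Tdgf1, Eng, Lefty1, Lefty2 and Cer1), 7 were paired with 10 probe sets whose annotation named 1 gene, out of 12422 probe sets that were not controls and 8251 genes named in this way. No probe set used here was paired with Lefty2, which was not analysed. The genes were taken by name, with no threshold on their signal, but with earlier results of these data known.

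The RNA came from 4 cultures, each hybridised to 1 MG_U74Av2 array. R1, an established mouse ES cell line, was cultured with LIF, a cytokine that keeps ES cells undifferentiated, and beta-mercaptoethanol in all 3 of its cultures. Adherent R1 cells on gelatin gave 1 array, and R1 cells kept for 48 hours as floating embryoid bodies gave 2 arrays, titled aggregation and suspension. The neurosphere array held RNA of floating neural cell clusters from the E13.5 embryonic telencephalon, grown with FGF2. According to its labels the culture also held contaminating oligodendrocytes, astrocytes and glia. Aggregation and suspension carry a single sample identifier and share their description in the labels, so they were taken as 2 replicates, but nothing says that they were separate cultures. If they hold 1 sample, n = 2 and the spread between them are technical. In the fit with 3 groups the residual spread came from that pair alone. In fits with 2 groups it also held, or without 1 of the pair consisted of, the difference between adherent cells and embryoid bodies. The labels give no treatment that acts on the pathways described here, no genotype beyond the line's name, and no age for the R1 cells.

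Nodal and its relatives belong to the TGF-beta superfamily of secreted proteins. Nodal and GDF3 signal through activin receptors and need a co-receptor such as Cripto, and the receptors pass the signal on by phosphorylating SMAD2 and SMAD3, which act in the nucleus with partners such as FOXH1. Lefty and Cerberus are secreted antagonists of Nodal, and Lefty is itself induced by Nodal signalling. BMP ligands use other receptors and SMAD1 and SMAD5, and the Id genes are their well-known targets. In the early embryo these signals pattern the epiblast and the primitive streak, and in mouse ES cell culture BMP4 is known to act with LIF in self-renewal.

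In the RefSeq tables for GRCm38.p6, promoters were found for 5 of the 8 genes (Nodal, Bmp4, Tdgf1, Eng and Cer1). The 250 bases before the start are shown for Tdgf1 and Nodal, which encode a co-receptor and its ligand and were both lower in neurospheres, and for Cer1, whose signal followed another order. Capitals mark motif matches on either strand.
Tdgf1 (chr9:110946159-110946408, minus strand): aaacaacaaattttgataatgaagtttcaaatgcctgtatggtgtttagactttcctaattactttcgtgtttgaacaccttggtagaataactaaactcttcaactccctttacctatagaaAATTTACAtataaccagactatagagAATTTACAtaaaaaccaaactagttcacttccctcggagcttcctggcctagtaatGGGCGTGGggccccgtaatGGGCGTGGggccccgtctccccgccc
Nodal (chr10:61417722-61417971, plus strand): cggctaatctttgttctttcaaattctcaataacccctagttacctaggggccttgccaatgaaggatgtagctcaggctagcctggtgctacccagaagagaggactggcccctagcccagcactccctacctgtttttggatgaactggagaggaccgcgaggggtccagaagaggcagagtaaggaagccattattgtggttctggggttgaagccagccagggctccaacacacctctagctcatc
Cer1 (chr4:82885152-82885401, minus strand): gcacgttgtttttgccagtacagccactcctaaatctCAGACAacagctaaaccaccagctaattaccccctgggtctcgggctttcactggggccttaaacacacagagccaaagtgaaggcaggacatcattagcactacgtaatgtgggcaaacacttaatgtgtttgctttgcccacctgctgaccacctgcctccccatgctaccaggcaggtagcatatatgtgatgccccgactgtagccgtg
The motifs searched were CAGACA (a SMAD box, in 17.1% of all 32851 promoters of this length), AATNNACA (a FOXH1 core, 10.9%), GGGNGTGG (a CACCC box of KLF and SP factors, 15.9%), the octamer ATTTGCAT of POU factors (1.6%) and GGCGCC (a BMP SMAD element, 9.59%). The Tdgf1 window held 2 matches to AATNNACA, both AATTTACA, starting 127 and 101 bases before the start. Any base was allowed at each N, and whether FOXH1 accepts TT there was not tested. The window also held 2 matches to the CACCC box, 45 and 26 bases before the start. The matches of different motifs did not overlap. The CACCC boxes lay in a direct repeat of 19 bases, gtaatgggcgtggggcccc, which followed itself without a gap. The Cer1 window held 1 CAGACA, 213 bases before the start, and none of the 5 motifs was found in these windows of Nodal, Bmp4 or Eng. The CACCC box was added to the search after the sequences were seen, and a match to these letters is a description of the sequence, not a binding site.

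The suspension and adherent arrays were deposited on nearly one scale, and the other arrays far below it (aggregation 45.8-fold and neurospheres 50.6-fold below the highest trimmed mean), so every array was brought to a trimmed mean of 500. The array medians were then 178 for adherent cells and 225 to 242 for the others, and the percentile 10 of the signals was 17.4 and 29.5 to 33.8. Marker lists were then set against the labels of the cultures. Of 12 pluripotency markers, Gdf3 and Tdgf1 among them, 11 fell in neurospheres in limma's test and 0 rose. Over all features tested, 11.9% fell and 8.2% rose. Only genes that reached the array median on at least 1 array were tested. All 12 reached it on each R1 array, and 3 reached it in neurospheres. For the others a lower neurosphere value was built into their selection. The summed signal of the 12 was 67173 and 77857 in embryoid bodies, 68430 in adherent cells and 2365 in neurospheres. Without Gdf3 and Tdgf1 the sums were 63459 and 74429, 63327.5 and 1945. Of 8 tested neural progenitor markers, 3 rose (Fabp7, Nes and Hes5) and 0 fell. Fabp7 and Hes5 reached the median only on the neurosphere array, so their direction was built into their selection. The summed signal of the 9 on the array was 55272 in neurospheres and 10386 to 11112 in R1 cells. Fabp7 alone had 41867 in neurospheres, and without it the sums were 13405 and 10370.4 to 11045, with Pax6 below the median of every array. Of 6 tested astrocyte markers, Aldoc and Sparcl1 rose and Gja1 fell, and Sparcl1 also reached the median only on the neurosphere array. The list (7 genes) summed to 8352 in neurospheres, 7825 in adherent cells and 4081 to 4829 in embryoid bodies, and without Gja1 to 6456, 479 and 609.8 to 1315. The oligodendrocyte list (5 genes) summed to 2411, 719 and 1313 to 1541, and without Sox10 to 1201, 360 and 636 to 696. Of its 3 tested genes only Sox10 rose, a call lost in 9 of 15 alternatives, and Mog and Cnp were below the median of every array. Of 5 tested neuron markers, Gap43 rose and Stmn2 fell. The neuron list (9 genes) summed to 8360, 4973 and 6780 to 6893, and without Tubb3 to 2369, 1904 and 2409 to 2454. The part of these cells in the results below was not tested. In bulk RNA, fewer cells of a type and less RNA per cell cannot be told apart.

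**Figure D1:**
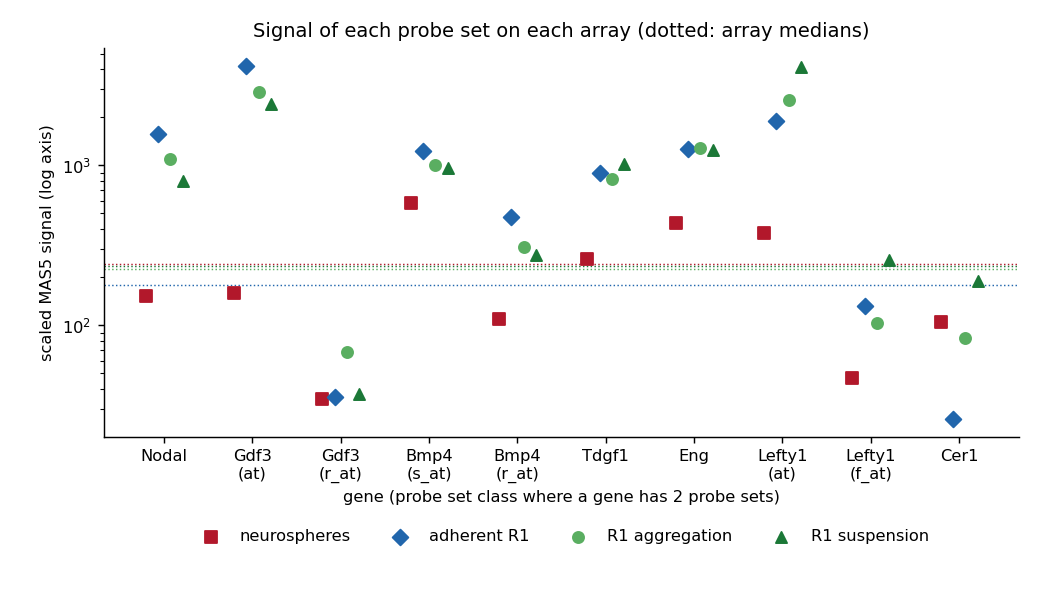
Scaled MAS5 signal (log axis) of the 10 probe sets on the 4 arrays, with dotted lines at the median of each array. The neurosphere square is the lowest of the 4 points for every probe set except that of Cer1, and Nodal, the brighter Gdf3 and the dimmer Bmp4 probe set lie below the array median in neurospheres only.

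The ligand genes were described first. Nodal, the ligand that gives the pathway its name, had a scaled signal of 1569 in adherent cells, 1099 in aggregation, 793 in suspension and 153 in neurospheres. The R1 arrays were all above their medians and the neurosphere signal was at percentile 39.0 of its array. A neurosphere signal below every R1 array was found for 32% of all features, and one above every R1 array for 35%. Gdf3, which encodes a Nodal-related ligand of pluripotent cells, had 4212 in adherent cells, 2890.2 in aggregation, 2410.2 in suspension and 159 in neurospheres. Its signal thus lay at percentiles 94.9 to 97.2 on the R1 arrays and at 39.9 in neurospheres. A second Gdf3 probe set, of the _r_at class, stayed below the median of every array, with signals of 34.4 to 68.1, and did not separate neurospheres (34.4) from adherent cells (35.3). Probe sets of the _r_at, _s_at and _f_at classes were designed with relaxed rules or can detect related transcripts. Nodal is also 1 of 9 streak and mesoderm markers on the array, whose summed signal, Nodal included, was 1869 and 1759 in embryoid bodies, 1951 in adherent cells and 1429 in neurospheres, with Gsc, Fgf8, Evx1 and Kdr below the median of every array. Without Nodal the sums were 770.2 and 967 in embryoid bodies, 382 in adherent cells and 1276 in neurospheres, so the other genes of that list together were highest in neurospheres. Apart from Nodal, 0 of the 4 tested genes passed limma's test or had an unadjusted p under 0.05.

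Bmp4, which encodes the BMP ligand best known in ES cell self-renewal, had a signal of 1233 in adherent cells, 1011 in aggregation, 963 in suspension and 578 in neurospheres. By the probe sets used in the test, it was the ligand gene of the 3 whose neurosphere signal stayed above the array median, at percentile 73.2. The dimmer Bmp4 probe set had 478, 309, 276 and 110 in the same order of arrays, so both probe sets gave one order. Its neurosphere signal, however, was below the array median, at percentile 32.6. For Nodal, the brighter Gdf3 probe set and both Bmp4 probe sets the adherent array was the highest, followed by aggregation and suspension. An adherent signal above both embryoid body arrays was found for 32.7% of all features and for these 3 of the 6 genes tested.

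Of the co-receptor genes, Tdgf1, which encodes the membrane-anchored Nodal co-receptor Cripto, had a signal of 1017 in suspension, 890.04 in adherent cells, 824 in aggregation and 260.3 in neurospheres. The adherent value lay between the embryoid body values, and the neurosphere value was at percentile 51.8, close to the array median. Its only probe set was of the _r_at class. Eng encodes endoglin, a co-receptor for TGF-beta and BMP ligands that is abundant in endothelium. It had 1291 in aggregation, 1260.3 in adherent cells, 1242 in suspension and 436 in neurospheres. The R1 values lay close together, and the neurosphere value remained at percentile 65.6.

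Eng is also one of 10 endothelial markers on the array. Of these, Cdh5, Kdr, Tie1, Vwf and Icam2 stayed below the median of every array, and of the other 4 besides Eng none passed limma's test. Tek, which encodes the angiopoietin receptor of endothelium, had 188 in adherent cells, 209 in aggregation, 238 in suspension and 30.8 in neurospheres. Its difference of -1.92 had an unadjusted p of 0.0254 in limma's fit and did not pass (adjusted p = 0.0970). Tek reached the array median only on R1 arrays, so a lower neurosphere value was built into its selection for the test. Pecam1, an adhesion molecule of endothelium, had 383, 123, 328 and 125 in the same order. Emcn had 54.5, 142, 244 and 72.8, and Flt1 had 124, 226, 32.6 and 136. Pecam1 and Emcn lay at -0.99 and -0.39, and Flt1 went the other way, at 0.25. The summed signal of the 10 genes, Eng included, was 2258 and 2384 in embryoid bodies, 2145 in adherent cells and 1096 in neurospheres, and Eng alone accounted for 436 of the last. Without Eng the sums were 967 and 1143, 885 and 659.6. The part of endothelial cells in the Eng result was not tested.

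The antagonist Lefty1 ran in another order among the R1 cultures. Its signal was 4109 in suspension, 2567 in aggregation, 1884 in adherent cells and 380.2 in neurospheres. Both embryoid body arrays were above the adherent array, the reverse of the ligand genes, as for 42.2% of all features and 1 of the 6 genes tested, and neurospheres were again lowest, at percentile 61.8. The dimmer probe set, of the _f_at class, had 255 in suspension, 132 in adherent cells, 103 in aggregation and 46.5 in neurospheres. It gave the same highest and lowest culture, but adherent cells and aggregation changed places. Whether either Lefty1 probe set also detects Lefty2 was not tested.

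Cer1, which encodes the antagonist Cerberus of the visceral endoderm, had a signal of 189 in suspension, 105 in neurospheres, 82.9 in aggregation and 26.0 in adherent cells. All of these were below the array medians, the closest being suspension at percentile 44.9, so Cer1 did not enter the main test. Neurospheres lay between the embryoid body arrays. Other markers of visceral and primitive endoderm (Gata6, Sox17, Foxa2, Afp, Ttr and Hnf4a) also stayed below the median of every array. The other 6 on the array (Gata4, Dab2, Lama1, Lamb1, Sparc and Cubn) reached it on at least 1 array. Lama1, a laminin of basement membranes, fell in neurospheres by 2.85 (limma adjusted p = 0.00754), and the other 5 did not pass. The Lama1 call was lost in 5 of the 15 alternatives. Among these were no signal filter, no intensity trend and leaving out the aggregation array (-2.42). Lama1 reached the array median only on R1 arrays, so a lower neurosphere value was built into its selection for the test. In a fit without the signal filter Cer1 did not pass limma's test in either comparison. Neurospheres minus R1 cells gave 0.52 ± 0.65 (SE, adjusted p = 0.683), and embryoid bodies minus adherent cells gave 1.46 ± 0.68 (adjusted p = 0.462).

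The neurosphere array was first compared with the R1 arrays, which sets a neural culture against ES cells. Nodal, Gdf3, Lefty1, Tdgf1 and Eng fell in neurospheres, Bmp4 did not pass the test, and none rose. Gdf3 fell by 4.14 ± 0.31 (SE) on the log2(signal + 32) scale, Nodal fell by 2.75 ± 0.39 and Lefty1 fell by 2.60 ± 0.33, with limma adjusted p-values of 1.55e-08, 5.08e-05 and 1.13e-05 in that order. Neurospheres (n = 1) were set against the mean of the adherent array (n = 1) and the embryoid body mean (n = 2). The fit takes the spread of both lone arrays to be that of the embryoid body pair. Over all 6843 features tested, 20.1% were called (11.9% fell and 8.2% rose), against 5 and 0 of the 6 genes tested here. The 6 genes were chosen with earlier results of these data known, so these counts are a description and no test of an excess. The neurosphere signal was below every R1 array for 6 of the 6 genes and for 32% of all features. Nodal and Gdf3 reached the signal filter only through R1 arrays, so a lower neurosphere value was built into their selection for the test.

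**Figure D2:**
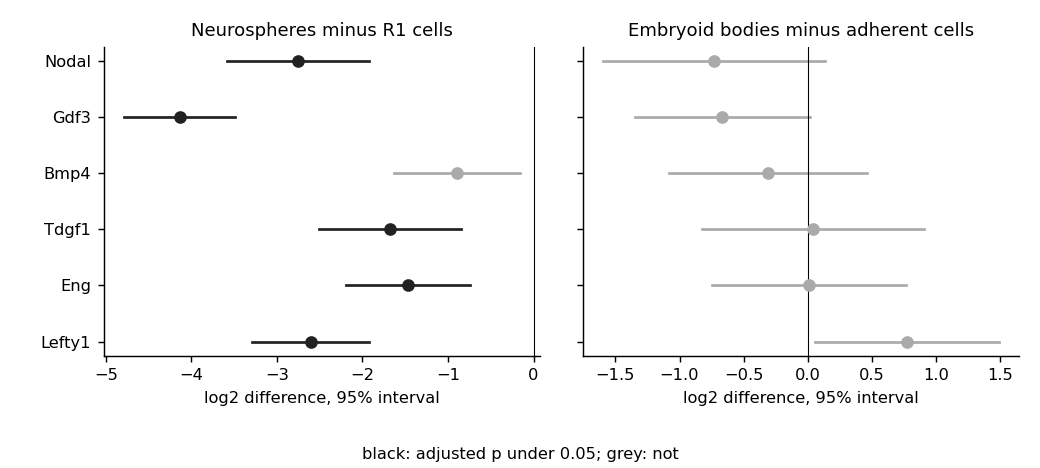
Log2 differences of the 6 tested genes with 95% intervals from limma, for neurospheres minus R1 cells (left) and embryoid bodies minus adherent cells (right). In the left panel 5 genes are black, past an adjusted p of 0.05, and Bmp4 is grey, and in the right panel all 6 are grey.

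The fall of Gdf3 was the largest of the 6, with a 95% interval of -4.79 to -3.49, and it ranked 41 from the lowest of the 6843 features. Only its brighter probe set carried it, since the dimmer one did not reach the filter. For Nodal the interval was -3.58 to -1.92 and for Lefty1 -3.29 to -1.92. The dimmer Lefty1 probe set, tested as a feature of its own, lay at -1.20 ± 0.90 and did not pass (adjusted p = 0.378). Gdf3, Nodal and Lefty1 passed under all 15 alternative settings, with ranges of -4.47 to -3.73, -3.11 to -2.38 and -2.99 to -1.90. In each case every one of the 3 R1 arrays was at least 2-fold above neurospheres, which held for 10.9% of all features.

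Among the co-receptor genes, Tdgf1 fell by 1.68 ± 0.39 (adjusted p = 0.00475), with an interval of -2.50 to -0.85, and Eng fell by 1.47 ± 0.34 (adjusted p = 0.00476), with an interval of -2.19 to -0.74. Both were also at least 2-fold below each R1 array. Both calls ended under 3 alternatives. The Tdgf1 call ended without the suspension array (-1.60, adjusted p = 0.0632) and the Eng call without the aggregation array (-1.45, adjusted p = 0.0721), both in a fit of 2 groups that called them with all arrays (adjusted p = 0.0119 and 0.0151). Without the intensity trend neither passed (adjusted p = 0.0751 and 0.0894). Bmp4 lay at -0.90 ± 0.35 and did not pass (adjusted p = 0.0814), with an interval of -1.63 to -0.16, and its dimmer probe set lay at -1.52 ± 0.60 (adjusted p = 0.0791). Scaling to array medians moved the median of all features from 0.10 to -0.14 and put Bmp4 past the threshold (-1.14, adjusted p = 0.0144). It changed the counts over all features from 816 lower and 561 higher to 1204 and 480. That fit had infinite prior degrees of freedom, against 17.3 in the main fit, as had the fits that left out an embryoid body array. What put Bmp4 past the threshold was not tested.

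The aggregation and neurosphere arrays shared the low deposited scale, so neurospheres were also set against aggregation alone. The log2 differences were -3.93 for Gdf3, -2.61 for Nodal, -2.66 for Lefty1, -1.55 for Tdgf1, -1.50 for Eng and -0.77 for Bmp4, close to those against all R1 cells. The fit of 2 groups with the deposited scale as a block gives these same differences of 1 array against 1, so it is no separate check. Its residual spread came from suspension against adherent cells alone (1 degree of freedom), and its prior degrees of freedom were infinite. In it limma called Gdf3, Lefty1 and Nodal, but not Tdgf1 or Eng. The remaining pair on a shared scale, suspension and adherent cells, belongs to the next comparison. Each array also had its own fluidics module and scan, per the headers of the experiment files, and these cannot be told apart from the culture.

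**Figure D3:**
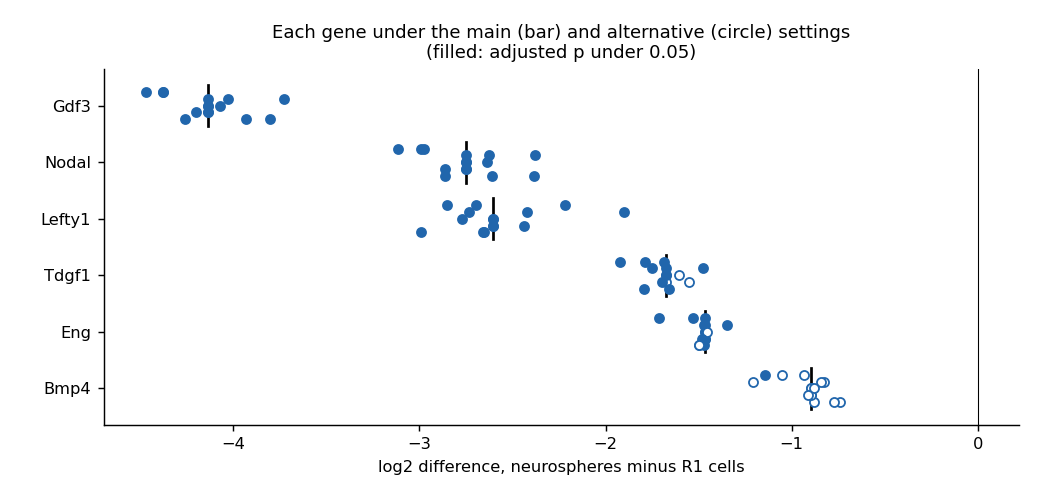
Log2 difference between neurospheres and R1 cells for the 6 tested genes under the main setting (bar) and up to 15 alternatives (circles, filled where limma's adjusted p is under 0.05). All circles lie below 0, those of Gdf3, Nodal and Lefty1 are all filled, and Bmp4 has 1 filled circle.

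Embryoid bodies were next compared with adherent cells, both with LIF. None of the 6 tested genes passed limma's test, where 0.351% of all features were called either way (0.263% or 18 higher, 0.0877% or 6 lower), and 1 of the 6, Lefty1, had an unadjusted p under 0.05. Lefty1 was higher in embryoid bodies by 0.78 ± 0.34 (SE, adjusted p = 0.308). Its signal of 3338 ± 1091 (SD, n = 2) compared with 1884 in adherent cells, and the spread between the embryoid body arrays was of the size of the difference. Set singly against adherent cells, suspension gave 1.11 and aggregation 0.44. Gdf3 and Nodal were lower in embryoid bodies, at -0.67 ± 0.32 (adjusted p = 0.359) and -0.73 ± 0.41 (0.435). Their signals were 2650.2 ± 339 and 946 ± 216 (SD, n = 2) in embryoid bodies.

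Bmp4 lay at -0.31 (95% interval -1.08 to 0.46), Tdgf1 at 0.04 (-0.82 to 0.90) and Eng at 0.01 (-0.75 to 0.76). These intervals still allow changes of more than 1.5-fold either way for Tdgf1 and Eng, so the data do not show that the cultures had the same level. Scaling to array medians moved the median of all features from 0.10 to -0.25 and the counts to 35 higher and 368 lower, but called none of the 6 genes. Under each alternative Lefty1 stayed higher in embryoid bodies (0.41 to 1.11) and Nodal and Gdf3 stayed lower (-1.09 to -0.50 and -1.04 to -0.53).

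Between the embryoid body arrays no test was possible. Suspension minus aggregation was 0.67 for Lefty1 and 0.29 for Tdgf1, and -0.45 for Nodal, -0.26 for Gdf3, -0.07 for Bmp4 and -0.05 for Eng. With the 1 probe set used per gene, none of the 6 genes was 2-fold apart between the arrays, where 9.73% of all features were at least 2-fold higher in suspension and 7.6% in aggregation. Cer1, below the median on both, had 189 against 82.9, and the dimmer Lefty1 probe set had 255 against 103, a ratio of 2.48. The deposited scale and the culture form in the titles cannot be told apart for this pair.

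The other genes of the pathways were taken from lists by role. Of 99 further genes listed, 71 were on the array and 40 reached the signal filter, and of these 2 rose and 6 fell in neurospheres. The 8 calls are 20% of the 40 tested (15% lower and 5% higher), beside 20.1% of all features (11.9% and 8.2%), so as a group these genes were called at the background rate. Of the genes that fell, Tgif1, Smad7, Foxh1, Fst and Pcsk6 reached the signal filter only through R1 arrays, and Bmp7, which rose, only through the neurosphere array, so their directions were built into their selection. The median difference of all 40 tested genes was 0.35, beside 0.10 over all features. Of the 40, 0 passed limma's test between embryoid bodies and adherent cells, and 3 higher and 3 lower had an unadjusted p under 0.05. The 31 genes below the median of every array, such as the receptor genes Acvr1b, Bmpr1a and Tgfbr1, the Cripto relative Cfc1, Smad3 and the Nodal target Gsc, were not tested.

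Inside the cell, the inhibitors of the pathways included the 2 largest falls among these 8 calls. Tgif1, a homeodomain co-repressor of SMAD2, had a signal of 3731 in aggregation, 3900 in suspension, 3713 in adherent cells and 239 in neurospheres. It fell by 3.81 ± 0.29 (adjusted p = 2.00e-08), and the R1 arrays hardly differed. Smad7, the inhibitory SMAD that is induced by the pathway it blocks, had 1202, 1780, 886 and 92.7 in the same order and fell by 3.23 ± 0.40 (adjusted p = 1.03e-05). As for Lefty1, suspension was the highest and adherent cells the lowest of the R1 arrays. Both genes passed under all 15 alternatives, and the third tested gene of that list, Ski, did not pass (-0.44, adjusted p = 0.435).

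**Figure D4:**
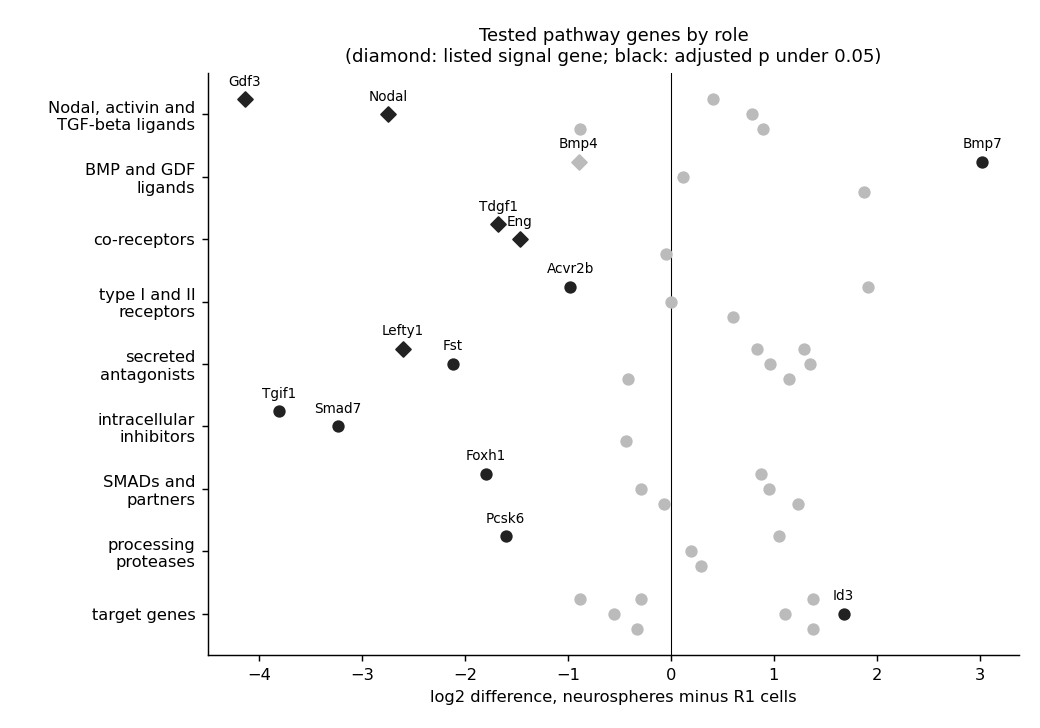
Log2 differences between neurospheres and R1 cells for the tested pathway genes in 9 roles (diamonds are the genes listed at the start, black marks an adjusted p under 0.05). Tgif1, Smad7, Gdf3 and Nodal lie farthest to the left, and Bmp7 and Id3 are the black points to the right of 0.

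Bmp7, another BMP ligand gene, went the other way. Its signal was 1125 in neurospheres, 235 in suspension, 109 in aggregation and 72.3 in adherent cells. It rose by 3.02 ± 0.65 (adjusted p = 0.00231) and passed under all 15 alternatives. Of the other 2 tested genes of the BMP and GDF ligand list, both ovarian ligands in their best-known role, neither passed (Gdf9 at 0.11 and Bmp15 at 1.88). Thus 1 BMP ligand gene, Bmp7, rose in neurospheres while Bmp4 did not pass, and the difference between their changes was not tested.

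Id3, a BMP target gene, rose by 1.68 ± 0.39 (adjusted p = 0.00474), from signals of 638, 451 and 487 in aggregation, suspension and adherent cells to 1707 in neurospheres. It was not called without the intensity trend or with the deposited scale as a block. Of the other 7 tested target genes none passed in this comparison with the probe set used. Junb was tested with an _r_at probe set (-0.29), while its other probe set lay at -2.68, with its test result not given here. The other Id genes lay on both sides of 0, with Id1 at -0.33, Id4 at -0.55 and Id2 at 1.38. Id2, chosen after its values were seen, had 1938 in neurospheres, 1869 in aggregation, 1379 in adherent cells and 55.8 in suspension, so a single array stood apart.

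The other calls were weaker. Foxh1, the DNA-binding partner of SMAD2, fell by 1.79 ± 0.58 (adjusted p = 0.0353), with signals of 675 in adherent cells, 252 in aggregation, 245 in suspension and 96.4 in neurospheres. Fst, which encodes the activin antagonist follistatin, fell by 2.12 ± 0.70 (adjusted p = 0.0376). Pcsk6, a proprotein convertase that can process Nodal, fell by 1.61 ± 0.55 (adjusted p = 0.0471), and the activin receptor gene Acvr2b fell by 0.98 ± 0.33 (adjusted p = 0.0420). These 4 calls were lost in 7, 9, 10 and 10 of the 15 alternatives, and each was lost when either embryoid body array was left out, but also in the fit of 2 groups with all arrays. Without aggregation the values were -1.78, -2.21, -1.93 and -1.14, and without suspension -1.80, -2.02, -1.28 and -0.81. In the roles with no call, Tgfb3 among the Nodal, activin and TGF-beta ligands lay at 0.79 (adjusted p = 0.342) and the co-receptor gene Tgfbr3 at -0.05 (adjusted p = 0.961).

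The profiles of the 6 tested genes over the 4 arrays were compared after centring each gene on its mean log2 value. Among themselves, Tdgf1 and Eng were closest, with a Euclidean distance of 0.31, and Gdf3 and Bmp4 were farthest apart, at 2.78. Nodal lay 1.47 from Lefty1, its antagonist, and 1.22 from Gdf3. Over the 6002 named genes tested, the closest to Nodal were Nop58 (0.04) and Slc20a1 (0.17), and the closest to Lefty1 were Pim3 (0.37) and Sinhcaf (0.40). For Gdf3 they were Lgals3 (0.26) and Laptm5 (0.34), for Tdgf1 Wdr75 (0.10) and Pip4k2c (0.12), for Eng Daxx (0.05) and Zfp639 (0.06), and for Bmp4 Ssu72 (0.08) and Mars1 (0.09). With 4 points per gene, these distances describe the arrays only.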

How the data were processed

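Linear MAS5 signal intensity was deposited for each probe set; MAS5 is named in the submitters' processing notes, and no version, settings or scaling target is given in the sources used here. There were no detection calls to tell dim signal from background. The table had 12488 probe sets. After 66 controls were left out, 10833 had 1 gene in GEO's platform annotation, 396 had several and 1193 had none. Arrays were scaled to a trimmed mean of 500 (2% left out at each end), and 32 was added before log2, which understates changes of low signals. Probe sets reaching the array median on any array were kept, and the one with the highest mean log2 stood for a gene, giving 6843 features.

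One limma model (3.58.1, R 4.3.3, intensity trend) with 3 groups was fitted; only the embryoid body pair gave residual spread (1 degree of freedom), to which the prior added 17.3. P-values were two-sided, with Benjamini-Hochberg adjustment over all features and a threshold of 0.05. The code was tested on simulated data.

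The genes and lists were chosen with earlier results of these data known. Named besides the 8 genes were up to 4 called genes per role, or the highest where none was called, and the 2 nearest profiles per tested gene; cell type markers and other genes were named after their values were seen.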

Additional observations from a re-analysis of the deposited data

How the results depend on the processing

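Over 15 alternatives for neurospheres against R1 cells and 9 for embryoid bodies against adherent cells, no called difference of the 6 genes changed direction, and none rose in neurospheres. Without the intensity trend the first comparison gave 245 features lower and 219 higher and 3 of the 6 genes lower, against 816, 561 and 5. A fit of 2 groups with all arrays gave 566, 381 and 5. In that fit, leaving out 1 embryoid body array gave 400 to 451 lower, 269 to 329 higher and 4 genes lower, and the deposited scale as a block, chosen after seeing the data, gave 239, 187 and 3. In the second comparison (6 lower and 18 higher) limma gave 0 and 0 without the signal filter (416 and 693 at an unadjusted p under 0.05) and without the trend (232 and 476). It gave 1 and 1 with the mean of a gene's probe sets, 2 and 3 without _r_at probe sets and 368 and 35 after scaling to array medians, and 2 lower after quantile normalization. Without _r_at probe sets Tdgf1 could not be tested, and leaving out an embryoid body array left no residual degree of freedom for the second comparison, so those values have no test. No paired analysis was possible, since neurospheres and adherent cells had 1 array each and the labels pair no arrays. The causes of these changes were not tested. The number of arrays limits precision.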
